A study of Mus musculus with 4 samples.

Results

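The Slc22 and Slco genes, which encode organic ion transporters, were taken as every non-control probe on the array whose gene name starts with Slc22a or Slco. This rule found 41 genes, 26 of the Slc22 family and 15 of the Slco family, among 34607 gene names. They were read by 48 of 55681 non-control probes, and 7 of them by more than 1 probe. No measured value entered the choice.

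Total RNA of whole kidneys was hybridized to 1-colour arrays, from female mice of the BALB/C strain in which membranous nephropathy (MN) had been induced. In this glomerular disease immune deposits form along the capillary wall. MN mice were immunized with 0.2 mg of cationic bovine serum albumin (cBSA) in complete Freund's adjuvant, and after 2 weeks received cBSA intravenously at 13 mg/kg, 3 times a week for 6 weeks. Control mice had the same immunization and then saline on the same schedule (another label gives PBS), so the groups differed in the intravenous cBSA and not in the adjuvant. All mice were stated to be 6 weeks old, with no genetic alteration given, and each group had 2 arrays. The labels do not say whether each array was a separate animal, so the tests measure the spread between these arrays, which may be technical.

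Organic anion transporters such as Slc22a6 and Slc22a8 take drugs, toxins and metabolites from the blood into proximal tubule cells in exchange for dicarboxylates, and organic cation transporters such as Slc22a2 take up cations down the membrane potential. Partners in the brush border then release these compounds into the urine. The Slco genes encode sodium-independent carriers of bile acids, steroid conjugates, thyroid hormones and prostaglandins, and in rodents several genes of both families are known to differ in level between the sexes.

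The arrays differed in sensitivity. Probes well above background made up 64.0% and 63.1% of spots on MN arrays 1 and 2, against 65.9% and 79.5% on control arrays 1 and 2. By this share control array 2 stood apart. By the 75th percentile of the linear signal, used for scaling, MN array 2 did. That percentile was 767 and 1204 on MN arrays 1 and 2, against 737 and 818 on control arrays 1 and 2. Arrays numbered 1 shared a slide and a scan, and so did those numbered 2, with 1 MN and 1 control array on each. Markers of the proximal tubule, the segment where most of these transporters are known to act, were present: all 30 listed genes were tested and 29 were well above background on all 4 arrays. Their summed linear signal, in multiples of the array's 75th percentile, was 2339 and 2903 on MN arrays 1 and 2, against 2240 and 3431 on control arrays 1 and 2, and their median log2 difference (MN minus control) was -0.04.

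Most of the transporters were measurable. A gene entered the test if a probe was well above background on the 2 MN arrays, the 2 control arrays or all 4, which held for 32 of the 41, and 30 of these were well above background on all 4 arrays. All values below are log2 signals relative to the array's 75th percentile unless stated otherwise. A signal depends on the probe as well as the transcript, so ranks order probe signals and not numbers of transcripts.

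In control kidney several uptake transporters of the proximal tubule gave some of the brightest signals on the array. Others ranked lower, with Slc22a8 at a mean percentile of 85.2 and Slco4c1 at 59.2 in control kidneys. The probes of 8 members lay in the top 5% of all probes in MN as in control kidneys, among them the organic anion transporters Slc22a6, Slc22a7, Slc22a13 and Slc22a19, the organic cation transporter Slc22a2, the imprinted gene Slc22a18, and Slco1a6, an organic anion carrier known from mouse kidney. The top 10% held 13 members in MN and 12 in control kidneys, and all 12 were among the 13. The additional one was Slc22a29, at a mean percentile of 90.2 in MN and 89.5 in control kidneys. None of the 12 moved by more than 2 percentile points, but percentiles near the top change little with signal. Slco1a6, with a log2 difference (MN minus control) of -0.34, had mean percentiles of 96.2 in MN and 96.8 in control kidneys. At the other end, 12 members lay below the median probe in control kidneys.

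**Figure D1:**
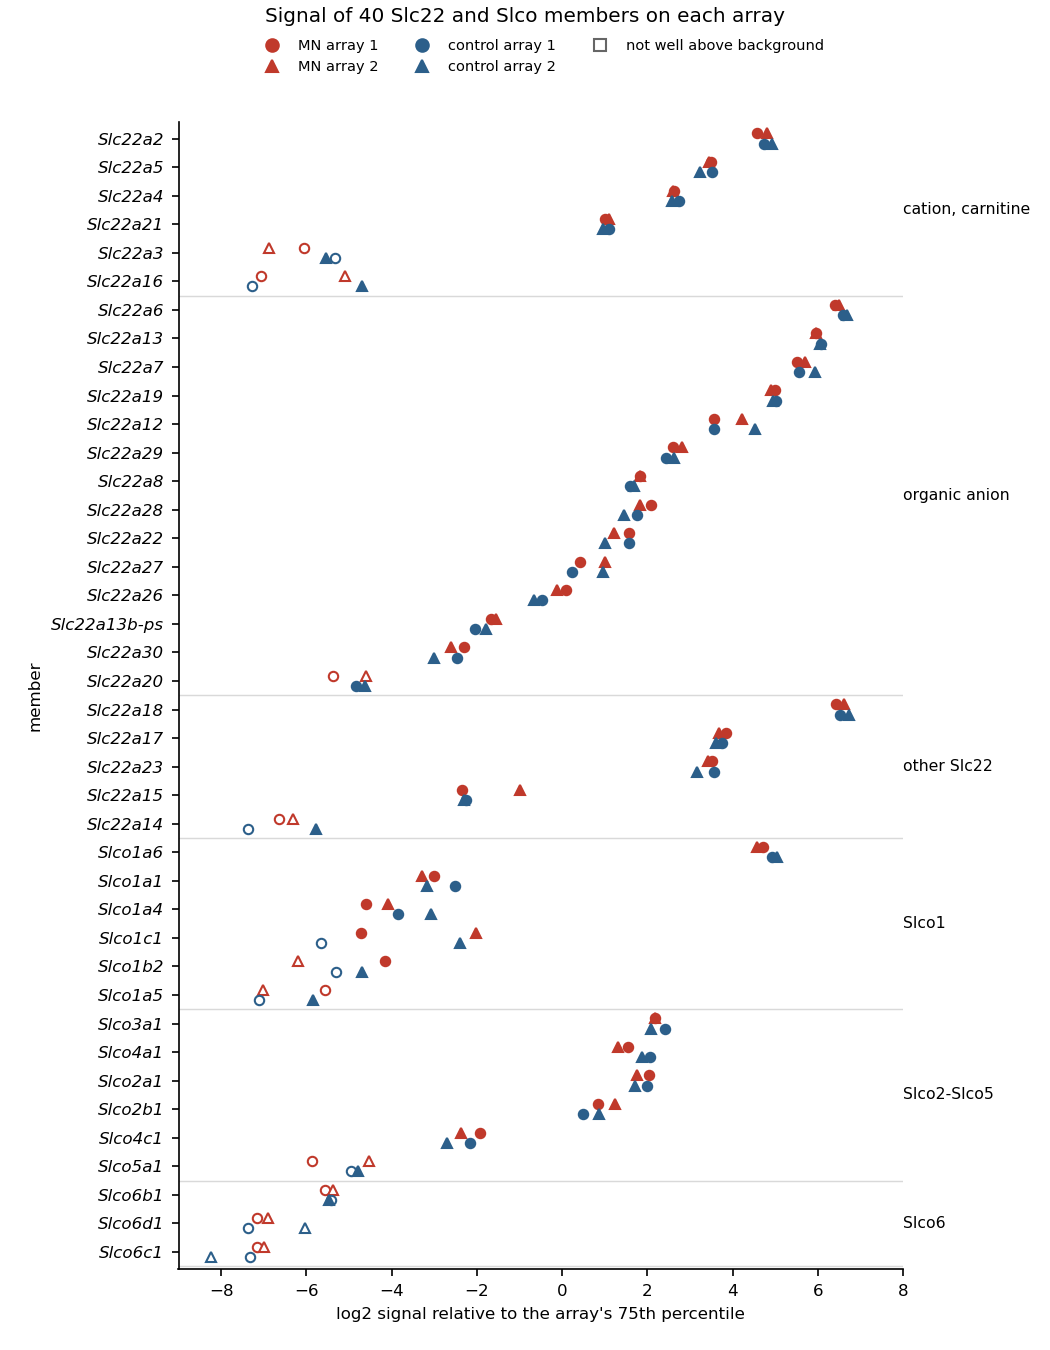
Signal of 40 members on MN arrays 1 and 2 (red) and control arrays 1 and 2 (blue), as log2 relative to the array's 75th percentile, grouped by role. Filled symbols were well above background and open symbols were not; members with open symbols lie near the bottom of the scale, and for most members above it the 4 arrays lie close together.

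**Figure D2:**
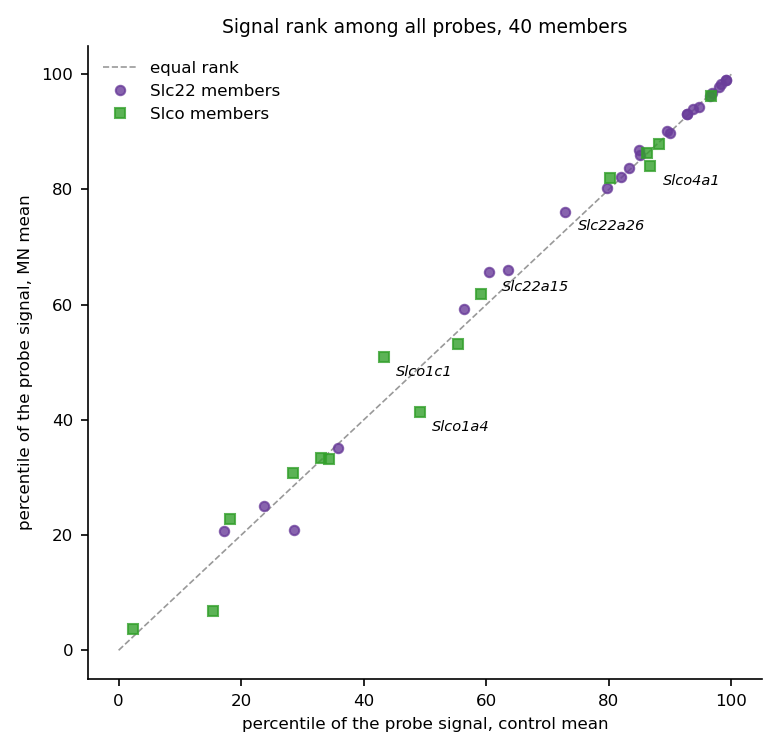
Percentile of the probes of 40 members among all probes, as the mean of the MN arrays (vertical axis) against the mean of the control arrays (horizontal axis). The brighter members follow the line of equal rank. Among the dim ones Slco1a4 (41.3 in MN, 49.1 in control), Slc22a3 (20.9 in MN, 28.6 in control) and Slco6d1 (6.73 in MN, 15.5 in control) lie below it and Slco1c1 (50.9 in MN, 43.3 in control) lies above it. Slco6d1 was well above background on no array, Slc22a3 on control array 2 alone, and Slco1c1 on all but control array 1. The ranks of Slco6d1 and Slc22a3 thus order signals near background.

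No member passed the test between MN and control kidneys. The lowest limma adjusted p was 0.613, and 0 of 32 members were called, against 5 genes of 25296, or 0.0198%. At an unadjusted p under 0.05, 1 member (Slc22a26) was higher in MN, where the background was 3.54% of genes, and 1 (Slco4a1) was lower, where the background was 3.49%. The higher count was 0 without MN array 2, control array 1 or control array 2, and the lower count was 0 without MN array 1, MN array 2 or control array 2. With the slide as a block, 4 members reached that level on the higher side (Slc22a26, Slc22a28, Slco2b1 and Slco1c1; background 6.29%) and 2 on the lower side (Slco1a4 and Slco4a1; background 9.05%), and none passed after adjustment. Both MN arrays lay above both control arrays for 5 members (background 13.2%) and below them for 5 (background 19.9%). Of these counts, the 4 of 32 members on the higher side with the block lay above the background of 6.29%. Slco1c1, among the 4, entered the test through its MN arrays alone, the group where it was higher. No conclusion is drawn from that count. The other counts were of the order of the background. In simulated data with 25296 genes, the test without the block reached only large changes. The share of changed genes it recovered was 0.146% at a log2 change of 1, 30.0% at 2 and 67.1% at 4. The simulated arrays were drawn independently, whereas deviations of the real same-numbered arrays correlated at 0.63. What the fit with the block can recover was not simulated. In whole kidney, fewer cells of a type and less RNA per cell cannot be told apart.

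Differences were small for most members. An absolute log2 difference under 0.5 was found for 27 of 32 members (84.4%) and for 88.3% of all genes tested. The median difference was 0.07 over the 32 members, with 18 above and 14 below 0. Over all genes tested it was -0.05, with 9754 above and 15542 below 0. For the 23 Slc22 members tested it was 0.09, and without MN array 2 or control array 2 it was 0.003 and 0.006. For the 9 Slco members tested it was -0.07, and it turned to 0.04 without control array 1. On both slides the difference had the same sign for 24 members.

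**Figure D3:**
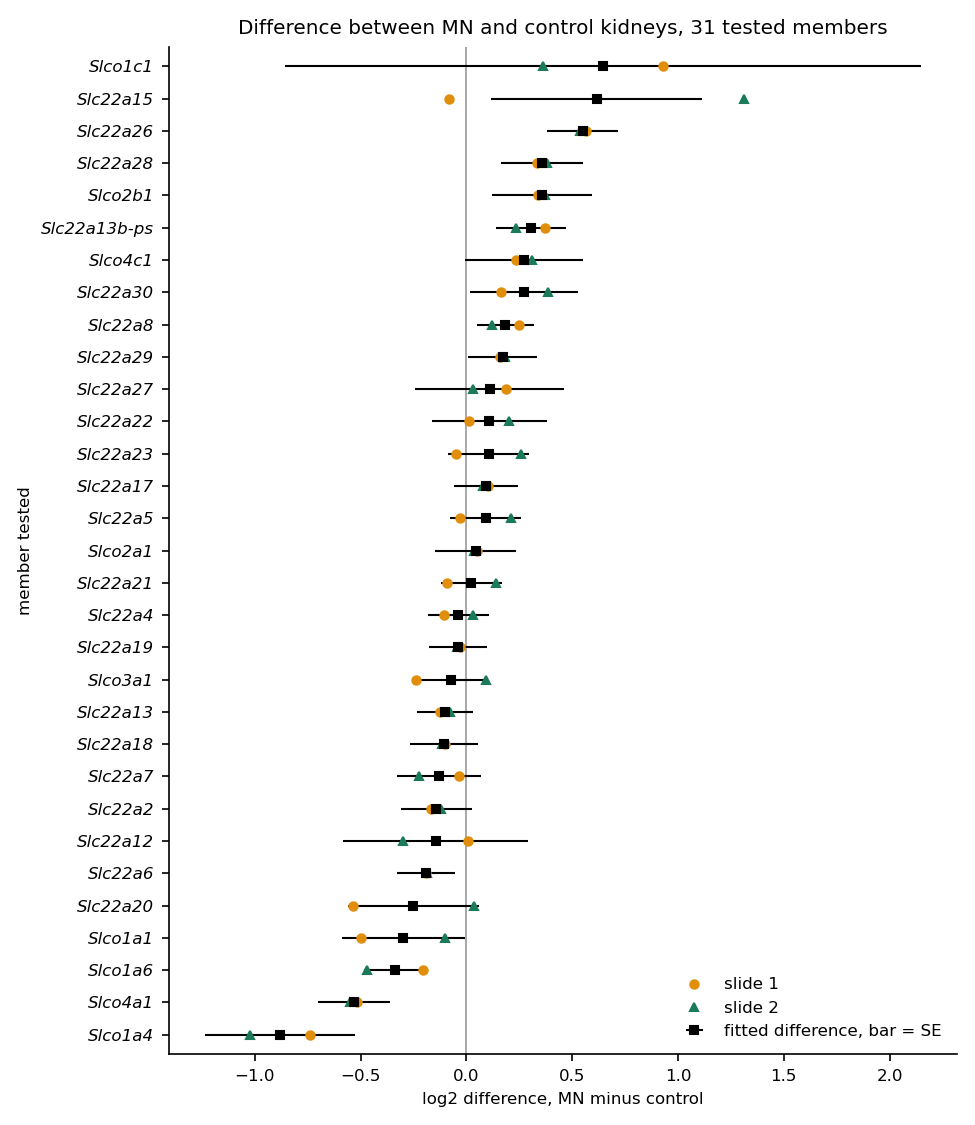
Log2 difference, MN minus control, of 31 tested members (squares, bars give the standard error of the fit), with the difference within slide 1 (circles) and slide 2 (triangles). Most members lie between -0.5 and 0.5, and Slc22a15 shows a wide gap between the slides, with -0.08 on slide 1 and 1.31 on slide 2.

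Among the classical organic anion transporters, the basolateral uptake pair Slc22a6 (OAT1) and Slc22a8 (OAT3) lay on opposite sides of 0. Slc22a6 had 6.41 and 6.49 on the MN arrays, against 6.60 and 6.68 on the control arrays. Both MN values lay below both control values, and the difference was -0.19 ± 0.14 (SE, n = 2 each; limma adjusted p 0.994), or 0.877-fold. Slc22a8 had 1.84 and 1.82 on the MN arrays, against 1.59 and 1.70 on the control arrays, with both MN values above the controls and a difference of 0.18 ± 0.14. Whether the 2 genes differ from each other in response was not tested.

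None of the other kidney anion transporters passed the adjusted test. Slc22a7 (OAT2) had 5.52 and 5.71 on the MN arrays, against 5.55 and 5.93 on the control arrays, a difference of -0.13 ± 0.20. Slc22a13 (OAT10), an exchanger of urate and nicotinate, had 5.95 and 5.97 on the MN arrays, against 6.08 and 6.04 on the control arrays, and a difference of -0.10 ± 0.13. Here both MN values lay below both control values by less than the standard error. Slc22a12 (URAT1), the brush border exchanger that reabsorbs urate, had 3.56 and 4.22 on the MN arrays, against 3.55 and 4.53 on the control arrays. Its signal followed the slide: array 2 was above array 1 by 0.66 in MN and by 0.97 in control kidneys, and the difference between groups was -0.15 ± 0.44. Slc22a22, a prostaglandin transporter of rodent kidney, differed by 0.11 ± 0.27, and its arrays overlapped. Slc22a13b-ps, a pseudogene by its name in the files, had -1.67 and -1.55 on the MN arrays, against -2.04 and -1.79 on the control arrays. Both MN values were above the controls, and the difference was 0.30 ± 0.16 (limma adjusted p 0.900).

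The anion transporter genes Slc22a19 and Slc22a26 to Slc22a30 lie in a cluster on chromosome 19 known from rodents. Slc22a8 and Slc22a6 lie beyond Slc22a30 on the same chromosome, with differences of 0.18 and -0.19. They were not counted with the cluster here. All 6 genes counted were tested, and 5 lay above 0 in MN relative to control kidneys, as did 9754 of all 25296 genes tested. The median difference of the 6 was 0.22, with 0.17 on slide 1 and 0.28 on slide 2. None passed the adjusted test. Slc22a26 had 0.10 and -0.12 on the MN arrays, against -0.47 and -0.66 on the control arrays. Both MN values lay above both control values, by a difference of 0.55 ± 0.17 (1.46-fold; unadjusted p 0.0304, limma adjusted p 0.613), with 0.56 on slide 1 and 0.54 on slide 2. With the slide as a block the limma adjusted p was 0.201.

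Slc22a28 was read by 2 probes that lay above the controls in the same way. The brighter had 2.09 and 1.83 on the MN arrays, against 1.76 and 1.45 on the control arrays, a difference of 0.36 ± 0.19 (limma adjusted p 0.900). The other had 1.79 and 1.68 on the MN arrays, against 1.23 and 1.14 on the control arrays, a difference of 0.55. Because these genes are close relatives, the first 30 of the 60 bases of each probe are shown as the files give them, with mm9 positions. No run longer than 10 bases was shared between probes of different members.
Slc22a26, chr19:7856477-7856536, - strand: attctaggaatatttgtctcaactccaatc
Slc22a28, chr19:8136749-8136808, - strand: gagaagaaaattgtattcaggacatggtga
Slc22a28 (brighter), chr19:8137911-8137970, - strand: atgggagtcattggaatgtttggtaatagt
Matching of these probes to transcripts of other cluster genes was not analysed here.

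Of the remaining cluster genes, Slc22a29 differed by 0.17 ± 0.16, Slc22a30 by 0.27 ± 0.26, Slc22a27 by 0.11 ± 0.35 and Slc22a19 by -0.04 ± 0.14. The upstream windows of Slc22a28 and Slc22a30 are shown because they were nearly the same: 238 of 250 bases were identical (95.2%), against 41.2% to 68.8% for the other 14 pairs of the cluster. The windows are the 250 bases before the gene start in RefSeq, build GRCm38.p6, on the gene's strand (chr19:8131983-8132232, - strand, and chr19:8405106-8405355, - strand), and capitals mark the 6 differing bases and the 6 bases at 1 end that lie outside the other window.
Slc22a28: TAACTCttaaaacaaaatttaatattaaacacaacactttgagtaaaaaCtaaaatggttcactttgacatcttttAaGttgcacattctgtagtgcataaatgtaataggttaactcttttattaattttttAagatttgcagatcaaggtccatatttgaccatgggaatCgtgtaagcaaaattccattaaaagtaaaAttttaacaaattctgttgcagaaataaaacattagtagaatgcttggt
Slc22a30: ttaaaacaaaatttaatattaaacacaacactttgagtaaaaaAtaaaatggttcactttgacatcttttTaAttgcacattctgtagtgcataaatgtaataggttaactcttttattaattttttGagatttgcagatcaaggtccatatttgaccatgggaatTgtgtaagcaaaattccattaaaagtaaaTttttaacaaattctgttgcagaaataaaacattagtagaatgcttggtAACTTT
On the arrays, Slc22a30 had -2.30 and -2.61 in MN, against -2.46 and -3.00 in control kidneys, so its groups overlapped. Those of Slc22a28 did not, but for its brighter probe MN array 2, at 1.83, lay close to control array 1, at 1.76. The differences on slides 1 and 2 were 0.16 and 0.39 for Slc22a30, and 0.33 and 0.38 for that probe. Whether the 2 genes differ from each other in response was not tested.

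**Figure D4:**
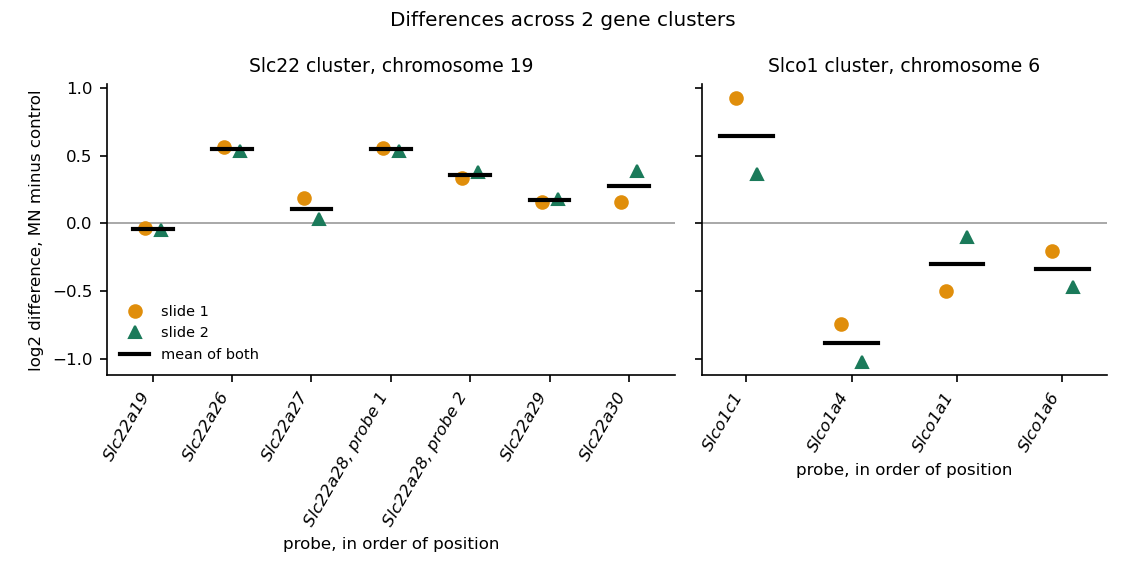
Log2 difference, MN minus control, of each tested probe of the Slc22 cluster on chromosome 19 (left) and the Slco1 cluster on chromosome 6 (right), in order of position, within slide 1 (circles) and slide 2 (triangles), with their mean as a line. In the left panel every probe but that of Slc22a19 lies above 0 on both slides, and in the right panel every probe but that of Slco1c1 lies below 0 on both slides.

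Of the organic cation and carnitine transporters 5 of 7 were tested, with a median difference of 0.02. All 5 lay within an absolute log2 difference of 0.5, as did 88.3% of all genes tested. Among those not tested, the measured signals of Slc22a3 differed by -1.02 and those of Slc22a16 by -0.11, both near background. Slc22a2 (OCT2), which takes up creatinine among other cations, had 4.58 and 4.81 on the MN arrays, against 4.74 and 4.93 on the control arrays, and a difference of -0.14 ± 0.17. Its groups overlapped. Slc22a5 (OCTN2), the carnitine transporter, had 3.49 and 3.45 on the MN arrays, against 3.53 and 3.24 on the control arrays, a difference of 0.09 ± 0.17. Slc22a4 (OCTN1), which carries ergothioneine, had 2.63 and 2.60 on the MN arrays, against 2.74 and 2.57 on the control arrays, a difference of -0.04 ± 0.14. In both genes the MN arrays lay between the control arrays. Slc22a21, a carnitine transporter of the mouse, differed by 0.02 ± 0.14.

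Of the other Slc22 members, Slc22a17, a receptor for lipocalin 2, differed by 0.09 ± 0.15. Slc22a18 and Slc22a23 differed by -0.11 ± 0.16 and 0.10 ± 0.19. Slc22a15 had -2.34 and -0.98 on the MN arrays, against -2.25 and -2.29 on the control arrays. The difference of 0.61 ± 0.50 rested on MN array 2, and without that array it was -0.06. A dimmer probe of the gene, well above background on control array 2 alone, differed by -0.71.

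The Slco1 genes form a cluster on chromosome 6. Of 6 members, 4 were tested, and 3 of them lay below 0, as did 15542 of all 25296 genes tested. The median difference of the 4 was -0.32, with -0.35 on slide 1 and -0.29 on slide 2. Slco1a6, the highest-ranked Slco member, had 4.71 and 4.57 on the MN arrays, against 4.92 and 5.04 on the control arrays. Both MN values lay below both control values, by a difference of -0.34 ± 0.15 (0.791-fold; limma adjusted p 0.805). Slco1a1, a carrier of steroid conjugates and bile acids, had -3.00 and -3.28 on the MN arrays, against -2.50 and -3.18 on the control arrays, a difference of -0.30 ± 0.29. That difference was -0.50 on slide 1 and -0.10 on slide 2, and it turned to 0.04 without control array 1.

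Slco1a4, known from liver and the blood-brain barrier as a carrier of bile acids and cardiac glycosides, had the lowest difference of the tested members. It had -4.59 and -4.09 on the MN arrays, against -3.85 and -3.06 on the control arrays. Both MN values lay below both control values, by a difference of -0.88 ± 0.36 (0.543-fold; limma adjusted p 0.775), with -0.74 on slide 1 and -1.02 on slide 2. With the slide as a block the limma adjusted p was 0.178, the lowest of any member in any setting. With normexp background correction the difference was -0.43. The probe was dim, with a mean percentile of 41.3 in MN and 49.1 in control kidneys, yet well above background on all 4 arrays. The first 30 of its 60 bases are shown with its mm9 position, since the value rests on this single probe.
Slco1a4, chr6:141754675-141754734, - strand: tatctcggtggatatgtgattgcctaatac
Slco1c1, a thyroxine transporter known from brain vessels, had -4.72 and -2.02 on the MN arrays, against -5.65 and -2.39 on the control arrays, so the signal of each group differed more between slides than between groups (a difference of 0.65, below its standard error). The value of control array 1 was not well above background, and the other probe of the gene was well above background on no array.

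The Slco2 to Slco5 genes had 5 of 6 members tested and a median difference of 0.04. Slco4a1, a carrier of thyroid hormones, had 1.55 and 1.32 on the MN arrays, against 2.07 and 1.87 on the control arrays. Both MN values lay below both control values, by a difference of -0.53 ± 0.17 (0.691-fold; unadjusted p 0.0345, limma adjusted p 0.630), with -0.52 on slide 1 and -0.55 on slide 2. With the slide as a block the limma adjusted p was 0.208. The first 30 of the 60 bases of its probe are shown with the mm9 position for the same reason.
Slco4a1, chr2:180209483-180209542, + strand: gcagcttgtgtggacagtgtgtttctatgt
Slco2b1 had 0.84 and 1.25 on the MN arrays, against 0.50 and 0.88 on the control arrays, so its groups overlapped, with a difference of 0.36 ± 0.24. Its other probe, which overlaps the first by 38 bases, differed by 0.30. Slco4c1, the organic anion carrier of the basolateral kidney membrane in rat and human, had -1.93 and -2.38 on the MN arrays, against -2.16 and -2.69 on the control arrays, a difference of 0.27 ± 0.28 with overlapping groups.

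The prostaglandin transporter Slco2a1 had 2.04 and 1.75 on the MN arrays, against 1.99 and 1.71 on the control arrays. Its difference of 0.04 ± 0.19 was smaller than the shift between slides, which lowered array 2 by a similar amount in both groups. Slco3a1, a carrier found in many tissues, had 2.18 and 2.18 on the MN arrays, against 2.42 and 2.09 on the control arrays, a difference of -0.07 ± 0.17, and its other probe differed by 0.07.

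The shift between slides was as large as the group differences for many members. From array 1 to array 2 the signal moved in the same direction in MN and control kidneys for 26 of 32 members, and for 74.9% of all genes tested. In 14 of the 32 the shift was larger than the difference between groups in both, as in 43.1% of all genes tested.

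**Figure D5:**
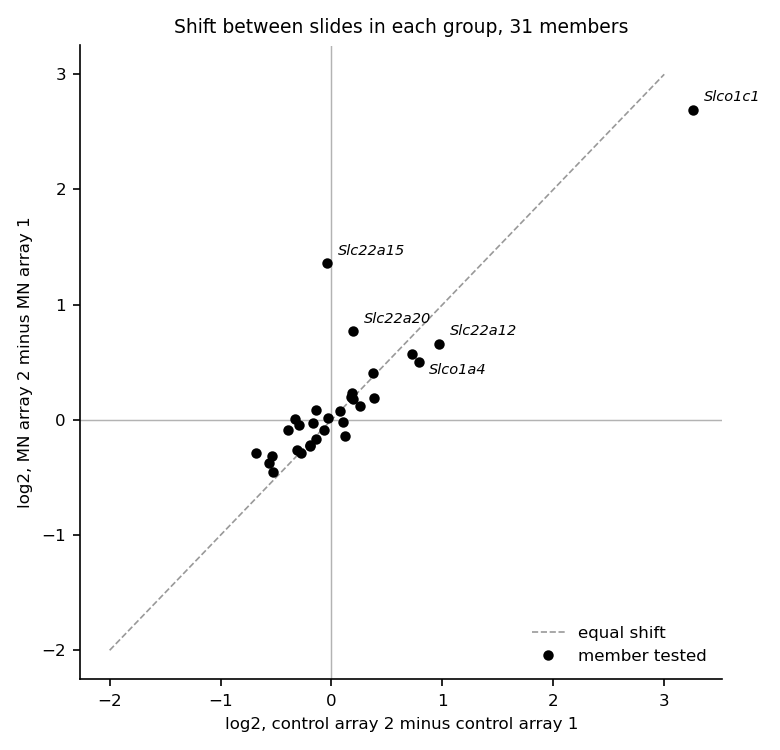
Log2 signal on array 2 minus array 1 in MN kidneys (vertical axis) and in control kidneys (horizontal axis) for 31 tested members, with a dashed line at equal shift. Most points follow the line, with Slco1c1 at 2.69 in MN and 3.26 in control kidneys, while Slc22a15 stands off it at 1.36 in MN and -0.04 in control kidneys.

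The dim members gave few measurements. Slc22a20 (OAT6), known from olfactory tissue, was well above background on both control arrays and on neither MN array. Its measured signals were -5.36 and -4.60 on the MN arrays, against -4.83 and -4.63 on the control arrays. MN array 2 lay above both control arrays, so no direction is given (limma p 0.463 before adjustment). The 9 members not tested were Slc22a3, Slc22a14, Slc22a16, Slco1a5, Slco1b2, Slco5a1 and the 3 Slco6 genes. Of these, 6 were well above background on control array 2 alone, the array with the most such probes, and Slco6c1 and Slco6d1 on no array. Slco1b2, a bile acid carrier of hepatocytes, was well above background on MN array 1 and control array 2. Slc22a3 (OCT3), a polyspecific cation transporter, had -6.04 and -6.88 on the MN arrays, against -5.34 and -5.55 on the control arrays, and of these the value of control array 2 was well above background. Slc22a14, Slc22a16 and the Slco6 genes are known mainly from testis.

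Genes that work with these transporters were listed apart: 22 efflux and counter-ion transporters and 15 regulators and scaffold genes. None of the 36 tested passed the adjusted test. The median difference was -0.02 over the 21 partner transporters tested and -0.04 over the 15 regulators. Among the partners the largest differences were 0.44 ± 0.14 for Slc16a9, a carrier of monocarboxylates and carnitine, -0.35 ± 0.16 for the bile acid transporter Slc10a2, and -0.34 ± 0.16 for Slc13a2, which supplies dicarboxylates. Slc2a9, the basolateral urate transporter, differed by 0.34 ± 0.18. Among the regulators, the 2 probes of Cux2 had opposite signs, at -0.44 and 0.51, and Prlr, the prolactin receptor, differed by -0.25 ± 0.14.

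Markers of some other cell types had higher summed signals or medians in MN. Of the adipocyte markers 2 passed the adjusted test, neither of them well above background on all 4 arrays. Of the podocyte, hepatocyte and plasma cell markers 0 passed. The 6 adipocyte markers tested summed to 4.60 and 5.46 times the 75th percentile on the MN arrays, against 0.233 and 0.266 on the control arrays. Of these 6, 1 had a difference below 0. The 3 detected on every array had a median log2 difference of 0.40, and the control sums include signals not well above background. The 6 podocyte markers summed to 46.0 and 43.1 in MN, against 26.9 and 26.0 in control kidneys, and 2 of them had a difference below 0. Of 12 hepatocyte markers 10 were tested, and 3 of these lay below 0. The median log2 difference was 0.68 over the 10 markers and 0.42 over the 9 well above background on all 4 arrays. Among them Alb had 0.01 and -0.19 on the MN arrays, against -0.92 and -1.29 on the control arrays, while Slc10a1, which made up most of the list's summed signal, differed by -0.07 ± 0.51. The median was 1.02 over the 4 plasma cell markers tested, of which 1 lay below 0. It was between -0.37 and -0.01 over those of the adrenal, endothelium, macrophages, and the loop, distal tubule and collecting duct. The 32 tested transporters summed to 499 and 526 in MN, against 528 and 564 in control kidneys. The part of these markers in the transporters' differences was not tested.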

How the data were processed

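The deposited scanner files give the linear intensity of each spot, with Cy3-labelled RNA of 1 kidney sample on each array. The authors' software was Agilent Feature Extraction 10.5.1.1, per the file headers: background had been subtracted and spatial trends removed, arrays were not scaled to each other, and probe positions are on mm9. The deposited value table holds log2 values relative to the control mean, with its making not given in the sources used here; its replicate columns 1 and 2 were exchanged in both groups against the scanner files (r over 55663 probes rounding to 1.00), so it served as an alternative alone.

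The 75th percentile of an array's non-control signals was subtracted from log2 of the processed signal, spots marked non-uniform were left out (0 of members), and spots of a probe were averaged. Probes entered if they were well above background in every array of MN, of control, or of both, and the brightest of them stood for the gene. The test was limma's two-sided moderated one (limma 3.58.1 under R 4.3.3, adjusted by Benjamini-Hochberg over 25296 genes at 0.05) with 2 MN and 2 control arrays, whose number limits the precision. Replicate number, slide and scan coincide per the file headers, and deviations of same-numbered arrays correlated at 0.63. Standard errors are from the fit without the block unless stated otherwise, so they include shifts between slides. The script was tested on simulated data. Tables and figures used matplotlib 3.10.9, numpy 2.4.6 and pandas 2.3.3 under Python 3.11.15, and windows were aligned with Biopython 1.88.

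A few genes, 1 member among them, enter the fits and counts but are not reported here by name. Values by array are given for members with an unadjusted p under 0.05 or an absolute difference of 0.5, for those with non-overlapping groups and 0.3 or more, for the classical renal transporters and for a member dim in 1 group; of the partner and regulator lists, the 4 largest differences. Members and lists were chosen with earlier results of these data known. Alternatives were normexp with offset 50, quantile and median scaling, the deposited table, 2 other filters, the mean over probes, trended and robust variance, a replicate block and each array left out.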

Additional observations from a re-analysis of the deposited data

How the results depend on the processing

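The count of members past the threshold was 0 in limma under all 14 alternatives, and so was that of partner transporters and regulators; at an unadjusted p under 0.05 the main counts were 1 higher and 1 lower, with 2 higher for the mean over probes, 4 with the block and 0 to 1 with 1 array left out, and with 2 lower under normexp, quantile scaling or the block, 0 under median scaling and 0 to 1 with 1 array left out. With the replicate block the lowest adjusted p of a member was 0.178, and the block changed no call. The median difference of the Slco members was -0.19 with probes well above background on all 4 arrays, which drops Slco1c1, and with 1 array left out it ranged from -0.237 to 0.0381, against 0.00339 to 0.0952 for the Slc22 members. No member changed sign under the other 10 alternatives. With 1 array left out, 15 members changed sign, over ranges of -0.632 to 0.339 for Slc22a12, -0.0645 to 1.29 for Slc22a15, -0.0818 to 0.00339 for Slc22a19, -0.634 to 0.133 for Slc22a20, -0.0486 to 0.0952 for Slc22a21, -0.172 to 0.389 for Slc22a22, -0.0911 to 0.30 for Slc22a23, -0.255 to 0.473 for Slc22a27, -0.120 to 0.0428 for Slc22a4, -0.0544 to 0.234 for Slc22a5, -0.319 to 0.0606 for Slc22a7, -0.638 to 0.0381 for Slco1a1, -0.983 to 2.28 for Slco1c1, -0.101 to 0.188 for Slco2a1 and -0.237 to 0.0881 for Slco3a1. The other 17 kept their sign, but some moved widely with 1 array left out: 0.0103 to 0.172 for Slc22a17, -0.205 to -0.011 for Slc22a18, -0.261 to -0.0256 for Slc22a2, 0.202 to 0.512 for Slc22a28, 0.0701 to 0.273 for Slc22a29, 0.00558 to 0.541 for Slc22a30, 0.176 to 0.431 for Slc22a13b-ps, -1.27 to -0.489 for Slco1a4, 0.152 to 0.56 for Slco2b1 and 0.00983 to 0.537 for Slco4c1. With normexp correction the difference of the dim member Slco1a4 was -0.43, and the cause was not tested. Log2 changes of 1 were called in 0.146% of simulated cases with 2 arrays a group, drawn without a shared slide effect and tested without the block. In the main test a member not called may thus still differ by that much or less. Signals near background limit the 9 members not tested.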
